A study of Schizosaccharomyces pombe with 3 samples.

Results

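Fission yeast makes transcripts of a set of meiotic genes while it grows vegetatively and destroys them in the nucleus. The 7 genes described here, mei4, ssm4, rec8, spo5, mcp5, rec10 and crs1, belong to this set and were taken by symbol or synonym from the reference annotation, which holds 5113 protein-coding genes with a coding sequence on the nuclear chromosomes. The annotation lists mcp5 under the symbol num1. All 7 were measured in every library. RNA polymerase II (Pol II) was at 0.394-fold to 0.952-fold of the bead control over their transcripts, and Med7 was at 0.906-fold to 2.72-fold in their promoter windows. The medians over all measured genes were 0.731-fold and 1.35-fold.

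Chromatin immunoprecipitation followed by sequencing gave 3 libraries from Schizosaccharomyces pombe of strain background 972 h-, grown to log phase in YEA medium with glucose. The Pol II library came from wild-type chromatin without a TAP tag, precipitated on Protein G beads with an antibody raised against the repeat tail of the largest Pol II subunit. For the Med7 library, chromatin of cells with a TAP tag on Med7, a subunit of the Mediator coactivator, was bound to IgG beads. Wild-type, untagged chromatin on beads without antibody served as bead control, which therefore differs from the Med7 library in both tag and beads.

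There was 1 library per precipitation and hence no replicate spread to set a difference against. Folds compare libraries and not conditions, p-values are left out, and parentheses hold 95% intervals of counting error alone. The files listed 1829877 reads for Pol II, 917064 for Med7 and 678947 for the bead control, of which 1687058, 696101 and 630825 were nuclear reads outside the ribosomal DNA ends and served as totals. Mitochondrial reads made up 7.73%, 23.8% and 6.84% of the listed reads. RPM below means nuclear reads scaled to 1000000 of those totals. A fold is RPM in the Pol II or Med7 library over RPM in the bead control in the same window.

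In vegetative cells the YTH-family protein Mmi1 binds these transcripts at a region called the determinant of selective removal, which is built from repeats of a short hexamer. Mmi1 passes the RNA to a complex around Red1 and the helicase Mtl1 and on to the nuclear exosome. When meiosis begins, the RNA-binding protein Mei2 and the non-coding meiRNA, made from sme2, take Mmi1 away and the transcripts survive. Pol II ChIP reads the polymerase on the gene and not the amount of RNA left after this removal.

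The hexamer, TNAAAC in DNA letters, was searched on the sense strand of each unspliced transcript. Its form TTAAAC was also counted alone (each TTAAAC is also a TNAAAC). The 7 genes held 4.35 to 7.78 hexamers per kb, against a median of 1.65 per kb over 5113 protein-coding genes. The rec8 transcript was densest, with 16 hexamers in 2056 bp, and 0.235% of genes were as dense or denser. Next came crs1 with 9 in 1194 bp and spo5 with 14 in 2105 bp. The sparsest was rec10 with 11 in 2527 bp, a density that 2.91% of genes reached. For TTAAAC alone the 7 genes held 1.19 to 4.19 per kb, against a median of 0.256 per kb over all genes. The share of genes as dense or denser in TTAAAC ran from 0.176% at crs1 to 6.12% at spo5 and 9.51% at rec10. These genes are known for Mmi1 binding, so the density describes them and is not independent of how they came to be listed.

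The hexamers were unevenly placed along the transcripts. In rec8 10 of the 16, in spo5 10 of the 14 and in ssm4 8 of the 13 lay in the closing segment when each transcript was cut in 3 equal segments. In mei4 1 of the 11 lay there. The 30 bases with the most hexamers in each of 6 transcripts are given to show what the repeats look like. Where several stretches were equal, as in rec8 and ssm4, the first is shown. Later pairs as close lay, for example, at bases 1903 and 1923 of rec8 and 1560 and 1576 of ssm4. The stretches are read 5′ to 3′ on the sense strand of assembly ASM294v3, with the hexamers in capitals. rec10 is left out because no 30 bases of it held more than 1.
mei4, chrII:1473913-1473942, plus strand, coding sequence: tagtTTAAACtcaaatattgTTAAACcccc
ssm4, chrI:4535247-4535276, minus strand, coding sequence: acagaagTTAAACattTGAAACtatgctta
rec8, chrII:2570135-2570164, plus strand, coding sequence: tTAAAACcatggattgaaaagcTCAAACca
spo5, chrII:2538100-2538129, plus strand, 3′ untranslated region: tacTCAAACTTAAACcaacaTAAAACctgt
mcp5, chrII:899377-899406, plus strand, coding sequence: caagtcaTTAAACtttTCAAACcgactaaa
crs1, chrII:3452378-3452407, minus strand, coding sequence: tgcagaTGAAACttataTTAAACactcaaa
The spo5 stretch held 3 hexamers, which 0.176% of genes matched in any 30 bases. The other 5 stretches held 2 each, which 10.9% of genes matched. Stretches with 2 hexamers are thus common among genes, and the one in spo5 is not.

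**Figure D1:**
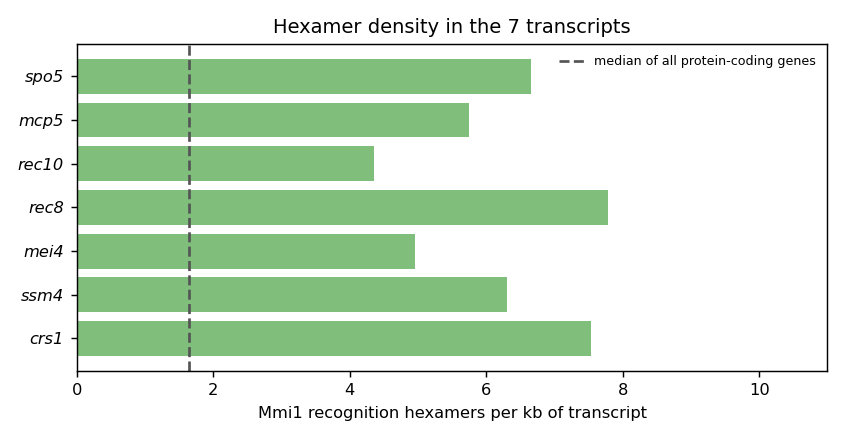
Bars give the number of TNAAAC hexamers per kb of unspliced transcript for the 7 genes, and the dashed line gives the median of 5113 protein-coding genes, 1.65 per kb. All 7 bars, from 4.35 per kb for rec10 to 7.78 per kb for rec8, pass that line.

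The 8 further meiotic genes in a list of reported or likely elimination targets (mug8, mug9, mug10, mug45, mcp3, mcp7, rem1 and mek1) had a median of 5.44 hexamers per kb, from 0.773 to 12.1. The 15 meiotic partners described further on had a median of 2.48 per kb and a wide range, from 0 to 14.0, so that the densest of them passed rec8. The 4 coding genes of the switch into meiosis had a median of 2.47 per kb and the 17 genes of the removal machinery one of 1.85. The 11 genes listed as vegetative counterparts, such as the mitotic cohesin kleisin rad21 and the B-type cyclin cdc13, with further cohesin genes, had a median of 1.80 per kb. The non-coding sme2, whose RNA binds Mmi1, held 9 hexamers in 1562 bp, or 5.76 per kb.

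Over transcript bodies the 7 genes fell into 2 ranges of Pol II density. Pol II stood at 38.5 RPM per kb at mcp5, 39.1 at spo5, 40.4 at rec8 and 43.2 at rec10. It stood at 67.9 RPM per kb at mei4, 68.7 at ssm4 and 69.5 at crs1. The bead control spanned 73.0 to 103 RPM per kb over the same bodies, and Med7 spanned 76.4 to 100. No gene of the 7 had more Pol II than bead control per kb, as the plot of read density shows, and the 2 ranges of Pol II do not follow the order of the control. Most genes shared this, since the upper quartile of the Pol II fold over all measured bodies was 0.978. With libraries scaled by their median 1 kb bin, ssm4 was at 1.175-fold (0.932 to 1.49) and crs1 at 1.34-fold (0.974 to 1.86).

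**Figure D2:**
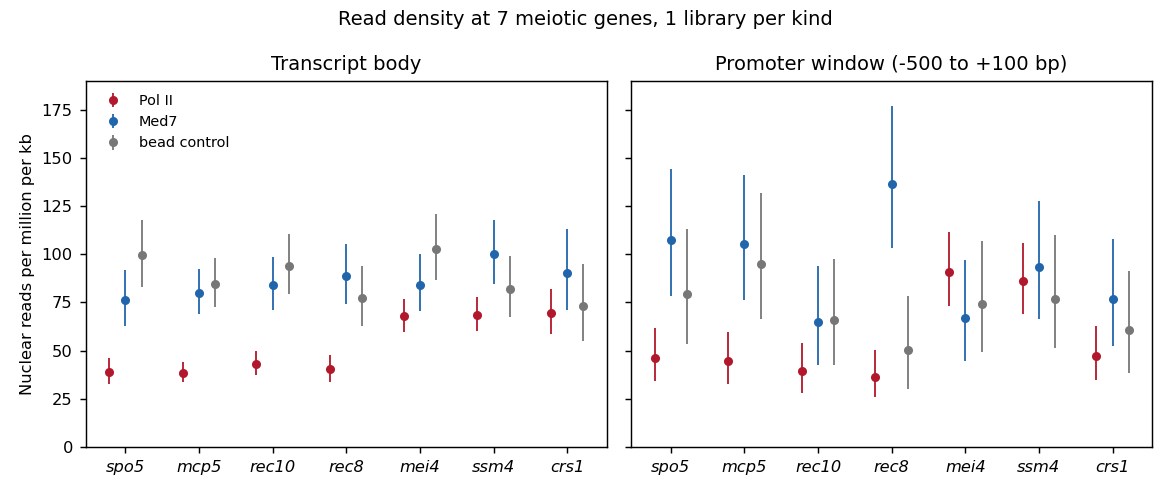
Points give RPM per kb for Pol II, Med7 and the bead control (1 library each) over the transcript body (left) and the promoter window (right), with exact 95% Poisson intervals of the read count. In the bodies spo5, mcp5, rec10 and rec8 have Pol II between 38.5 and 43.2, against 67.9 to 69.5 at mei4, ssm4 and crs1. In promoter windows the Med7 point of rec8 stands highest, at 136.

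In folds, 3 of the 7 bodies were low, meaning 0.5-fold or less of the control with the upper bound under 1, namely those of spo5, mcp5 and rec10, and 0 were high, meaning 2-fold or more with a lower bound over 1. Of all 4967 measured bodies, 11.6% were low and 6.8% were high. The median over the 7 was 0.523-fold, against 0.731-fold over all measured bodies. With only 7 genes this count is a description, and it depends on the scaling. The median log2 Pol II fold of all bodies was -0.45, and it was 0.04 when libraries were scaled by their median 1 kb bin. That scaling turned 338 high and 578 low bodies into 564 and 68, and 0 of the 7 then counted as low. Values relative to the median body do not depend on this choice and are given with each gene.

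The forkhead transcription factor gene mei4 switches on genes of the meiotic divisions and spore formation. Its transcript (SPBC32H8.11, chromosome II, 1473068 to 1475285, plus strand, 1 exon) held 254 Pol II reads and 144 control reads. This gave 0.660-fold (0.536 to 0.815), or 0.902 of the median body (0.732 to 1.12), with 37.6% of bodies lower. Pol II was uneven along it. In its opening, middle and closing segments it stood at 0.974-fold (0.680 to 1.42), 0.307-fold (0.203 to 0.462) and 0.798-fold (0.554 to 1.16). The first 115 bp of the transcript lie within that of cdk9, which encodes a Pol II elongation kinase, and the actin gene act1, at 3.90-fold (3.18 to 4.83), ends 199 bp beyond it. The 300 bp after the mei4 end were at 1.83-fold (1.14 to 3.09). Over bases more than 200 bp from any other protein-coding transcript mei4 was at 0.592-fold (0.471 to 0.747), and over bases outside every other annotated gene, non-coding ones included, at 0.868-fold (0.549 to 1.40). The middle segment of mei4 was among the lowest stretches of the 7 genes. Its ends lie beside other genes, and the part of their Pol II in the values at the ends was not tested.

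The meiotic cohesin gene rec8 encodes the kleisin that holds sister chromatids together through the first meiotic division. Its body (SPBC29A10.14, chromosome II, 2568938 to 2570993, plus strand, 5 exons) had 140 Pol II reads against 100 control reads. It was at 0.524-fold (0.402 to 0.684), just above the limit of 0.5, or 0.716 of the median body (0.550 to 0.935). Counted over its coding sequence alone it was at 0.457-fold (0.343 to 0.611). From the opening to the closing segment it stood at 0.419-fold, 0.465-fold and 0.710-fold, with overlapping intervals. The recombination gene rec10 encodes a protein of the linear elements, the axial structures on which fission yeast chromosomes recombine. Its body (SPAC25G10.04C, chromosome I, 4301367 to 4303893, minus strand, 1 exon) had 184 Pol II reads against 150 control reads, at 0.459-fold (0.368 to 0.573) or 0.627 of the median body (0.503 to 0.784). Here too the middle segment was lowest, at 0.307-fold (0.203 to 0.462), between 0.529-fold and 0.564-fold at its sides. Both chromosome structure genes thus carried Pol II below the median body.

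Lowest of all was spo5, which encodes an RNA-binding protein needed for progress through the meiotic divisions and for making spores. Its body (SPBC29A10.02, chromosome II, 2536150 to 2538254, plus strand, 3 exons) had 139 Pol II reads against 132 control reads. This gave 0.394-fold (0.308 to 0.504), or 0.539 of the median body (0.421 to 0.689), and 2.82% of measured bodies were lower. All 3 segments were alike, at 0.353-fold, 0.424-fold and 0.396-fold. The last 127 bp are shared with the convergent gene pcf1, and the bases outside other genes were at 0.380-fold (0.292 to 0.495). With median-bin scaling the spo5 body was at 0.554-fold (0.433 to 0.708) and was not low.

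The nuclear movement genes differed from each other. mcp5 encodes the cortical anchor for dynein that pulls the nucleus back and forth in meiotic prophase, and ssm4 encodes the dynactin subunit that works with this motor. The mcp5 body (SPBC216.02, chromosome II, 898056 to 901363, plus strand, 1 exon) had 215 Pol II reads against 177 control reads, at 0.454-fold (0.370 to 0.557) or 0.621 of the median body (0.507 to 0.762). The ssm4 body (SPAC27D7.13C, chromosome I, 4534674 to 4536736, minus strand, 1 exon) had 239 Pol II reads against 107 control reads, at 0.835-fold (0.662 to 1.06) or 1.14 of the median body (0.906 to 1.45). Their intervals did not overlap. In ssm4 Pol II was at 1.03-fold and 0.957-fold in the opening and middle segments and at 0.600-fold in the closing one.

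The meiotic cyclin gene crs1, whose introns are kept in during vegetative growth, had the highest fold. Its body (SPBC2G2.09C, chromosome II, 3452323 to 3453516, minus strand, 5 exons) had 140 Pol II reads against 55 control reads, at 0.952-fold (0.692 to 1.33) or 1.30 of the median body (0.947 to 1.81). Of its 1194 bp, 444 are shared with the convergent gene ade9, so the reads there cannot be separated. Outside other genes crs1 was at 0.856-fold (0.579 to 1.29). More than 200 bp from other protein-coding transcripts it was at 1.16-fold (0.691 to 2.03). Its level was thus at that of the control within counting error whichever bases were used.

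Ordered from spo5 through mcp5, rec10, rec8, mei4 and ssm4 to crs1, every gene had an interval that overlapped those of its neighbours in the order. The interval of spo5 did not overlap those of mei4, ssm4 and crs1, and those of mcp5 and rec10 did not overlap those of ssm4 and crs1. That of rec8 did not overlap that of crs1. The plot of folds shows this order beside the spread over all genes.

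**Figure D3:**
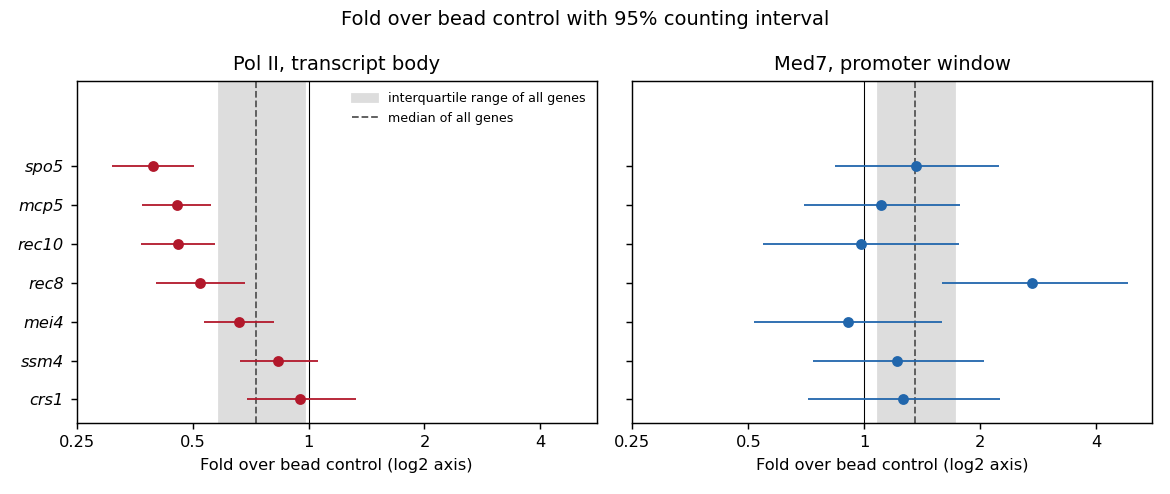
Points give the fold over the bead control on a log2 axis, with the exact 95% counting interval, for Pol II over the body (left) and Med7 in the promoter window (right). The grey band is the interquartile range and the dashed line the median of all measured genes. Pol II at spo5, mcp5, rec10 and rec8 lies left of the band, and Med7 at rec8 (2.72-fold) lies right of it.

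Since read depth and base composition can vary along a chromosome, each gene was set beside the protein-coding gene on either side. 4 of the 7, mei4, spo5, mcp5 and rec10, had a lower Pol II body fold than both, which 31.9% of 4814 genes did. spo5 at 0.394-fold lay between ccr1, for a cytochrome P450 reductase, at 0.806-fold (0.672 to 0.969) and pcf1, for a subunit of the histone chaperone CAF-1, at 0.606-fold (0.471 to 0.783). rec10 at 0.459-fold lay between the histidine synthesis gene his1 at 1.30-fold (0.991 to 1.72) and the transcription factor gene zip1 at 1.19-fold (0.948 to 1.52). mcp5 at 0.454-fold lay beside psy2, for a phosphatase subunit, at 1.01-fold (0.847 to 1.22), and on its other side beside an uncharacterized gene, SPBC216.03, at 0.694-fold (0.515 to 0.942). The interval of rec10 did not overlap those of his1 and zip1, and that of mcp5 did not overlap that of psy2. By contrast the interval of spo5 overlapped that of pcf1 and that of mcp5 overlapped that of SPBC216.03. The interval of mei4 overlapped that of cdk9, which was at 0.881-fold (0.733 to 1.06). Of these 4 genes only rec10 was thus apart from both neighbours.

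The remaining 3 had a neighbour that was lower. rec8 lay beside the replication origin gene orc1 at 0.499-fold (0.390 to 0.639), a value within its own interval. ssm4 lay beside but1 at 0.391-fold (0.254 to 0.601), and crs1 beside mug110 at 0.610-fold (0.401 to 0.939).

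**Figure D4:**
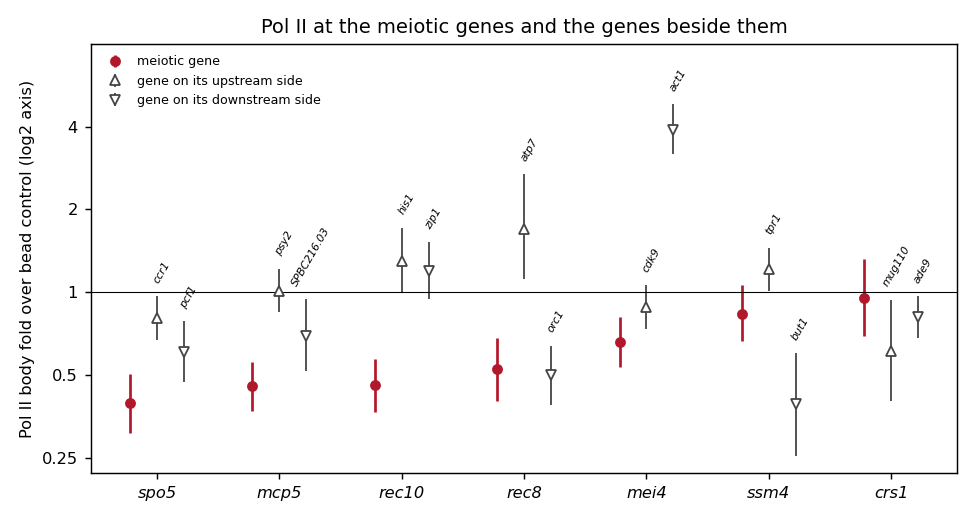
The Pol II body fold over the bead control (log2 axis) is given for each of the 7 meiotic genes (filled circles) and for the protein-coding genes on its upstream and downstream sides (open triangles), with exact 95% counting intervals. The points of spo5, mcp5, rec10 and mei4 lie below those of both neighbours, but only the interval of rec10 overlaps neither. The gene act1 beside mei4 is the highest shown, at 3.90-fold.

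Along the bodies Pol II was lowest in the middle segment at 4 of the 7 genes (mei4, mcp5, rec10 and crs1), as at 36.5% of 4485 genes with at least 10 control reads per segment. Med7 was lowest in the middle segment at 6 of the 7, all but mcp5, as at 48.7% of those genes. Single segments of the 7 held 11 to 63 control reads, so most of these intervals overlap.

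**Figure D5:**
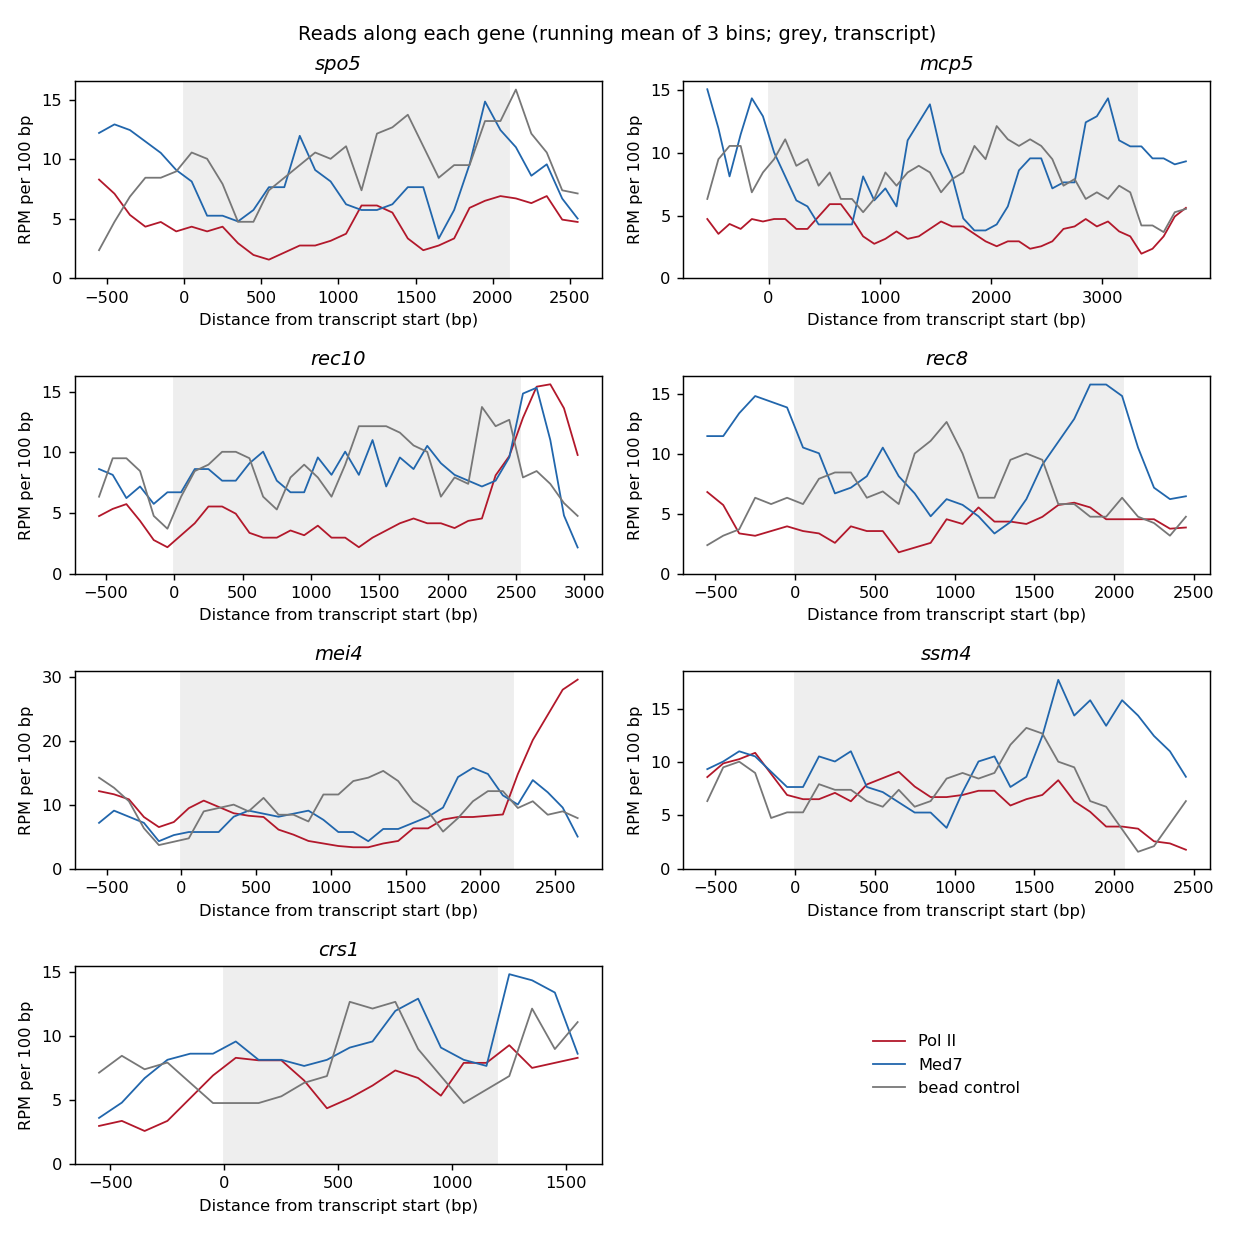
Lines give RPM in 100 bp bins (running mean of 3 bins) for Pol II, Med7 and the bead control from 600 bp before the transcript start, with the transcript in grey. Pol II climbs past the end of mei4 and rec10, towards act1 and zip1, and Med7 is above the control before the start of rec8 and around the ends of rec8 and ssm4.

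Promoter windows, from 500 bp before to 100 bp after the transcript start, held 19 to 36 control reads. Pol II there was at 0.5-fold or less at 1 of the 7, mcp5, with 45 Pol II reads against 36 control reads, or 0.467-fold (0.295 to 0.746). Of 4944 measured windows 14.0% were low and 4.35% were high for Pol II. The mcp5 value moved to 0.748-fold (0.360 to 1.64) in a window from -250 to +50 bp. The highest were mei4 at 1.23-fold (0.797 to 1.95) and ssm4 at 1.12-fold (0.729 to 1.77). All 600 bp of the mei4 window lie in the cdk9 transcript and 262 bp of the ssm4 window in that of tpr1, for a subunit of the Paf1 elongation complex, so Pol II of these genes cannot be told apart from Pol II at the meiotic starts.

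Med7 stood out from the control at the promoter of 1 of the 7 genes. At rec8 it had 57 reads, or 81.9 RPM, against 19 reads, or 30.1 RPM, in the control. This gave 2.72-fold (1.59 to 4.84), and 96.5% of measured promoters were lower. Of 4943 measured promoters 14.1% were high, a share close to 1 in 7, and 0.263% were low, as 0 of the 7 were. The median over the 7 was 1.21-fold, against 1.35-fold over all promoters. The rec8 window overlaps no other protein-coding transcript, and its upstream neighbour atp7 ends 594 bp before the rec8 start. Antisense non-coding RNAs are annotated there, SPNCRNA.5713 over 336 bp and SPNCRNA.5714 over 35 bp, so the reads cannot be assigned to rec8 alone. The Med7 fold at rec8 stayed between 2.22-fold and 2.75-fold under the scalings, the collapse of duplicates, the unshifted reads and the narrower window.

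At the other 6 promoters the Med7 intervals included 1. Med7 had 64.7 RPM at spo5, against 47.6 RPM in the control (1.36-fold, 0.838 to 2.24). At crs1 it had 46.0 RPM against 36.5 (1.26-fold, 0.715 to 2.26), and at ssm4 56.0 RPM against 46.0 (1.22-fold, 0.735 to 2.04). These 3 lay near the median promoter. Lower values were those of mcp5 with 63.2 RPM against 57.1 (1.11-fold, 0.697 to 1.77), rec10 with 38.8 RPM against 39.6 (0.979-fold, 0.547 to 1.76) and mei4 with 40.2 RPM against 44.4 (0.906-fold, 0.517 to 1.59). At mei4 10.6% of measured promoters were lower. Between -250 and +50 bp the mcp5 value was 2.27-fold (1.13 to 4.86) and counted as high, while rec10 had too few reads there. In that narrower window 22.2% of 4558 measured promoters were high for Med7, and the median over them was 1.51-fold. At this depth a Med7 difference under about the size of these intervals was not detectable.

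The bases before rec8 and mei4, the promoters with the highest and the lowest Med7 fold, are given because the 2 genes carry different known promoter elements. They are 250 bases ending just before the annotated start, read 5′ to 3′ on the sense strand of ASM294v3. Capitals mark ACGCGT, the MCB element of the G1/S factor MBF, and GTAAACA, the core of the FLEX element bound by Mei4 itself and written TGTTTAC on the other strand.
rec8, chrII:2568688-2568937: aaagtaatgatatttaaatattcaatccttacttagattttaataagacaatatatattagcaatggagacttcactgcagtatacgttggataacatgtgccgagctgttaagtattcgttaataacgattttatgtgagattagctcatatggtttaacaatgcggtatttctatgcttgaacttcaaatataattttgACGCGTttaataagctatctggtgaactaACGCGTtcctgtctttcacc
mei4, chrII:1472818-1473067: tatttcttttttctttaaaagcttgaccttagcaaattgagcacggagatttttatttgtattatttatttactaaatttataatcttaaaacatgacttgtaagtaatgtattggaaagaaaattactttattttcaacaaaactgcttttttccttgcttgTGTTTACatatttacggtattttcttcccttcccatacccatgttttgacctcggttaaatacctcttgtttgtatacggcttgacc
In the 500 bp before the start, on both strands, rec8 was the only one of the 7 with ACGCGT, which began at -49 and -20 bp and which 4.01% of 5113 such windows held. GTAAACA was found at mei4, beginning at -87 bp, and at spo5, at -364 bp, and in 24.4% of all windows. TTCTTTG, the core of the TR box of the mating regulator Ste11, was found at mei4 at -266 bp and in 16.4% of all windows. The 3 motifs do not overlap in these windows. The annotation gives rec8 no 5′ untranslated bases, so its window is set from the coding start. A match is a run of letters and not a measured site.

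Over bodies Med7 was high at 0 of the 7 and low at 0, and of 4962 measured bodies 0.544% were high and 0.645% low. The 7 ran from spo5 at 0.769-fold (0.592 to 0.997) to ssm4 at 1.22-fold (0.943 to 1.58) and crs1 at 1.24-fold (0.861 to 1.78). The last segment of rec8 was at 1.81-fold (1.15 to 2.91), from 60 Med7 reads against 30 in the control. Its end overlaps the promoter window of orc1, whose transcript begins 107 bp beyond the rec8 end and whose window was at 2.72-fold (1.57 to 4.93) for Med7. In the same way the 300 bp after ssm4 held 25 Med7 reads against 4 control reads, a ratio of 5.66 (1.96 to 22.4). The thioredoxin family gene but1 begins 286 bp beyond ssm4, so these bases lie within its promoter window, which was at 3.56-fold (1.95 to 6.93). The orc1 and but1 windows share reads with these gene ends, so the folds are not separate measurements. Med7 at these ends cannot be told apart from Med7 at the starts of the next genes.

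Across 4962 bodies the Med7 fold was lower where the G and C content was higher (Spearman's rho -0.50, a description over genes of the same libraries). The bodies of ssm4 and crs1, with the highest Med7 folds, had 34.3% and 34.2% G and C, against 36.9% at spo5 and a median of 36.8%. mcp5, also at 34.3%, was at 0.942-fold. For Pol II the correlation over 4967 bodies was 0.25. In promoter windows it was -0.21 for Med7 and 0.04 for Pol II. The part of base composition in the folds of the 7 was not tested.

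Antisense long non-coding RNAs are annotated over 5 of the 7 bodies (mei4, ssm4, rec8, mcp5 and rec10). SPNCRNA.1397 spans all 3308 bp of mcp5, and SPNCRNA.5714 covers 1859 bp of rec8. ChIP reads carry no strand of transcription, so Pol II on either strand enters the same count.

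Of 17 measured genes of the removal machinery, 0 bodies were low and 0 were high for Pol II, against 11.6% and 6.8% of all bodies. Their median of 0.761-fold was near that of all genes. mmi1 was at 1.04-fold (0.870 to 1.25), red1, the scaffold of the complex, at 0.884-fold (0.734 to 1.07), mtl1 at 1.01-fold (0.843 to 1.21) and the exosome nuclease gene rrp6 at 0.565-fold (0.452 to 0.708). The ends of the list were not1, for the scaffold of the Ccr4-Not deadenylase complex, at 1.33-fold (1.18 to 1.49) and pir2, for a zinc finger protein, at 0.518-fold (0.415 to 0.647). Med7 was high at 3 of the 17 promoters, those of red5 (2.79-fold), rrp6 (2.46-fold) and ccr4 (2.23-fold), against 14.1% of all promoters. The median of the 17 was 1.42-fold, against 1.35-fold over all promoters, and mmi1 was lowest at 0.813-fold.

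For the switch into meiosis, mei2 was at 0.533-fold (0.447 to 0.637) for Pol II and 1.34-fold (0.745 to 2.45) for Med7 at its promoter. Of the 4 coding genes of that list 1 body was high, that of ste11, which encodes the master regulator of mating, at 2.89-fold, and 0 were low. Over all bodies 6.8% were high and 11.6% low. The highest Med7 promoter of the 4 was that of mei3, which encodes the inhibitor of the Pat1 kinase, at 1.90-fold (1.12 to 3.31), and the lowest that of pat1 at 1.06-fold (0.661 to 1.70). The non-coding sme2 was at 0.819-fold (0.629 to 1.07) for Pol II and 1.20-fold (0.894 to 1.61) for Med7 over its 1562 bp. Set beside the median of 0.731-fold over all measured bodies, mei2, for the protein that opposes Mmi1, was lower. The interval of sme2, for the RNA, included both this median and 1.

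Of the 8 further meiotic targets, 4 bodies were low, against 11.6% of all bodies (rem1 at 0.345-fold, mek1 at 0.473-fold, mug9 at 0.486-fold and mcp3 at 0.493-fold), 0 were high and the median was 0.555-fold. With median-bin scaling 1 of the 8 was low, against 1.37% of all bodies. With duplicates collapsed 1 of the 8 was low, against 6.69% of all bodies. Over coding sequence 2 of the 8 were low, against 19.3% of all bodies. mug8 stood at 0.986-fold (0.827 to 1.18). Med7 was high at 1 of the 8 promoters, mug45 at 2.16-fold (1.27 to 3.78), against 14.1% of all promoters. It was lowest at mek1 at 0.755-fold (0.426 to 1.33).

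Among 15 meiotic partners of the 7 genes, 6 bodies were low for Pol II, against 11.6% of all bodies, with a median of 0.517-fold. With median-bin scaling 1 of the 15 was low, against 1.37% of all bodies. They included rec11, for the cohesin subunit that pairs with Rec8, at 0.431-fold (0.354 to 0.524), rec12, for the enzyme that cuts DNA in recombination, at 0.430-fold (0.306 to 0.605), and mug20, for a linear element protein, lowest at 0.349-fold (0.237 to 0.512). The dynein heavy chain gene dhc1, the motor of nuclear movement, was at 0.746-fold (0.678 to 0.820), and rec15 was highest at 1.17-fold (0.827 to 1.70). Med7 was high at 0 of these 15 promoters, against 14.1% of all promoters, with values from mfr1 at 0.736-fold to rec24 at 1.77-fold. Low Pol II values were thus found both in the 7 genes and in meiotic genes of the partner list, and a difference between these lists was not tested.

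Of 11 genes listed as vegetative counterparts 0 bodies were low and 0 were high for Pol II, against 11.6% and 6.8% of all bodies. Their median was 0.678-fold, against 0.731-fold over all bodies. rad21, the mitotic counterpart of rec8, was at 0.752-fold (0.623 to 0.911), against 0.524-fold at rec8. The forkhead genes fkh2, sep1 and fhl1 were at 0.659-fold, 0.828-fold and 0.518-fold (lowest of the list), against 0.660-fold at mei4. The cyclin genes cig2, the highest, and cdc13 were at 1.64-fold (1.42 to 1.91) and 1.61-fold (1.38 to 1.90), and the cyclin genes cig1 and puc1 at 0.628-fold (0.486 to 0.817) and 0.679-fold (0.551 to 0.840). The value of crs1, 0.952-fold, stood between these pairs. Med7 was high at 3 of the 11 promoters, those of puc1 (2.64-fold), psm1 (2.29-fold) and psc3 (2.19-fold), against 14.1% of all promoters. The median of the 11 was 1.56-fold, against 1.35-fold over all promoters. The mei4 body thus lay within the range of the forkhead genes. The rec8 body was lower than rad21 and the other cohesin genes listed, psc3 (0.557-fold), psm3 (0.610-fold) and psm1 (0.792-fold), but its interval overlapped theirs. The interval of crs1 lay below those of cig2 and cdc13 and overlapped those of cig1 and puc1.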

How the data were processed

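What the authors deposited is a read list for each library, with chromosome, first base, last base and strand, and no normalised values. Bowtie 0.12.7 is named in the submitters' processing notes, without a role. Genome build and settings for repeated hits: not given in the sources used here. On ASM294v3, 0 nuclear reads started where the 45 bases occur elsewhere in the genome, against 147 to 306 with starts moved by 1 base. Coordinates were therefore read as 1-based on that assembly. Duplicates (12.9% to 17.0%) were kept.

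Reads were counted at their 5′ end moved inwards by 72, 67 and 82 bp, from the fragment length in the strand cross-correlation (145 bp for Pol II, 135 bp for Med7, 165 bp for the control, those of Med7 and the control from a weak signal). Windows needed 20 reads in both libraries together and 90% unique starts. Intervals are exact conditional binomial. Medians used a pseudocount of 0.5 reads. Counting and intervals were tested on simulated data. The tools were numpy 2.4.6, pandas 2.3.3, scipy 1.17.1 and matplotlib 3.10.9, under Python 3.11.15. Sequences and gene models are from RefSeq, ASM294v3. All 7 genes matched the annotation, and 0 genes of the lists were missing from it. Named genes are the 7, the gene on either side of each, and of each list the ends and those tied to one of the 7. Other genes that make up a count of called genes were named after their values were seen. The genes and lists were chosen with earlier results of these data known.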

Additional observations from a re-analysis of the deposited data

How the results depend on the processing

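No paired analysis was possible because each precipitation has 1 library. The count of 3 low Pol II bodies among the 7 genes was 0 with median-bin scaling and 1 with duplicates collapsed, and 2 to 4 under the other alternatives. The 1 low Pol II promoter became 0 under both and in the -250 to +50 bp window, and 2 without the shift of reads. The 1 high Med7 promoter became 2 in the -250 to +50 bp window, and bases outside other genes gave 1 high Med7 body in place of 0, rec8, over few bases (3.24-fold). In the -250 to +50 bp window 22.2% of all measured promoters were high for Med7, against 14.1% in the main window. For low Pol II bodies the lists gave, with median-bin scaling, 1 further target and 1 partner, and with duplicates collapsed 1 further target and 4 partners. Coding sequence gave 1 machinery gene, 2 further targets and 1 counterpart. It also gave 9 partners of 15 in place of 6, against 19.3% of all bodies. Unshifted reads gave 1 machinery gene and 3 further targets. Bases outside other genes gave 1 further target of 6 measured, 2 partners of 6 and 1 counterpart of 10. Bases over 200 bp from other protein-coding genes, an alternative chosen after seeing the data, gave 2 machinery genes, 1 switch gene and 5 partners of 10 measured. For high Med7 promoters, unshifted reads gave 2 machinery genes, 1 switch gene, 2 further targets and 1 counterpart. Collapsed duplicates gave 0 further targets and 2 counterparts. All listed reads as the total gave 2 machinery genes, 0 further targets and 1 counterpart. The narrow window gave 2 partners and 4 counterparts. Bases outside other protein-coding genes gave 1 machinery gene of 12 measured and 4 counterparts of 10. The cause was not tested. Over all genes, low Pol II bodies numbered 578, or 68 with median-bin scaling, 332 with duplicates collapsed and 955 over coding sequence, low Pol II promoters 690, 129 and 438 under the first 2, high Pol II promoters 215 or 529 with median-bin scaling, and high Med7 promoters 697, or 246 with all listed reads as the total, which counts the mitochondrial reads. With median-bin scaling the Pol II body fold was 1.17 at ssm4, 1.34 at crs1 and 0.928 at mei4. Of the single-gene values under an alternative, 159 stayed within their interval and 14 moved outside it; some folds near 1, such as those of ssm4 and crs1, crossed 1.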
